A study of Mus musculus with 7 samples.

Results

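Heparan sulfate is a long sugar chain that cells build on a small set of core proteins, the glypicans and syndecans among them, and the genes described here encode the enzymes and transporters that start, extend, sulfate, trim and degrade this chain. The list holds 38 genes, chosen by symbol, and all 38 were present among the 19257 named genes of the table. GPC6 (glypican 6) is itself a heparan sulfate proteoglycan, so the comparison asks whether the machinery that decorates it differed in tumors that overexpressed it. All mice carried a glioma induced by in utero electroporation of Cas9 with guides that target tumor suppressors, including Trp53 and Nf1, on CD-1 and C57BL/6 backgrounds. A piggyBac transposon system delivered with the guides served to mark cells with a GFP reporter and, in the GPC6 group, to overexpress GPC6. The control group, 3xCR, had the guides without GPC6. Tumor tissue was taken under a fluorescence microscope at the permitted endpoint, when neurological signs had set in, with 1 library per brain, 3 of them from 3xCR mice (numbered 2 to 4) and 4 from GPC6 mice (numbered 1 to 4). The age of each animal at that point is not given in the sources used here, and no tumor-free brain was analysed here.

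A heparan sulfate chain starts on a xylose that is extended by a short linker, and exostosin enzymes then add glucuronic acid and N-acetylglucosamine in alternation. N-deacetylase/N-sulfotransferases, an epimerase and the 2-O-, 6-O- and 3-O-sulfotransferases modify stretches of the chain, which decides which growth factors and receptors can bind to it. Sulfatases at the cell surface and heparanase change the finished chain, and lysosomal enzymes take it apart. In the brain, some of the 3-O-sulfotransferases, Hs3st2 and Hs3st4 among them, are known for expression in neurons.

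The values are normalized counts, that is, reads per gene divided by 1 size factor per library, and all were whole multiples of the value of 1 read. Depth ran from 7197692 to 18879762 reads on genes per library, so that 1 read was worth 0.548 to 1.55 normalized counts and a count of 0 allows 1.64 to 4.64 normalized counts, which covers counting error only. Values per library are always given in the order of the replicate numbers, 2, 3 and 4 for 3xCR and 1, 2, 3 and 4 for GPC6. Each fold change is a difference of mean log2(normalized count + 1), GPC6 minus 3xCR, with a standard error (SE) and the Benjamini-Hochberg adjusted p of limma's test over all genes. Gpc6 itself, read as a check of the labels, had 217, 226 and 126 normalized counts in 3xCR tumors against 675, 263, 3434 and 5084 in GPC6 tumors. The groups did not overlap (log2 fold change 2.85, SE 0.98, limma adjusted p = 0.730), and the two-sided exact permutation test gave p = 0.057. In the library labelled GPC6 replicate 2, however, Gpc6 was little above its 3xCR values. GPC6 replicate 1 stood apart by hypothalamic markers, whose sum was 1161 normalized counts against 16.7 to 59.4 in the other libraries, by choroid plexus markers (12725 against 66.9 to 3803) and by low markers of proliferation (1311 against 7397 to 18251). For several members that rest on these libraries, values without them are also given. The libraries are bulk tissue, in which fewer cells of a type and less RNA per cell cannot be told apart. Marker genes of neurons, oligodendrocytes, astrocytes and microglia were read in every library.

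Among the heparan sulfate genes, 1 was lower in all 4 GPC6 tumors than in all 3 3xCR tumors, Hpse, and 1 was higher in all of them, Extl2. No member passed limma's test across all genes at an adjusted p under 0.05 (0 of 37 tested, against 0.0% of the 14782 genes whose mean reached 10 normalized counts), and no member had an adjusted p below 0.730. edgeR's quasi-likelihood test and the Wald test of DESeq2 on the recovered reads also called 0 members, where they called 0.0% and 0.0211% of all genes. At an unadjusted p under 0.05, limma held 1 member, Extl2, which is 2.70% of those tested against 4.66% of all genes, 2.74% as higher. edgeR held 3 of 37 there, Extl2, Ndst4 and Ids, all higher in GPC6 tumors, against 6.7% of all genes and 3.75% as higher. The groups did not overlap in 2 members, 5.41% of those tested against 6.32% of all genes, of which 2.8% were higher and 3.52% lower in GPC6 tumors. Without GPC6 replicate 2, limma held 7 members at an unadjusted p under 0.05 (9.46% of all genes) and 8 did not overlap (16.1% of all genes). Without GPC6 replicates 1 and 2, 5 were at that p (6.10% of all genes) and 12 did not overlap (23.6% of all genes). Higher mean log2 values in GPC6 tumors were seen in 19 members and lower ones in 18, with a median log2 fold change of 0.00068 beside -0.019 over all genes tested, and 22 of the 37 lay within 0.5 of zero. With all 7 libraries and the deposited scaling, the shares of the list at limma's unadjusted p and by overlap were below those of all genes. The one member left out by the filter, Hs3st6, had 0 reads in 3xCR replicate 4 and GPC6 replicate 4 and at most 4.64 normalized counts elsewhere.

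**Figure D1:**
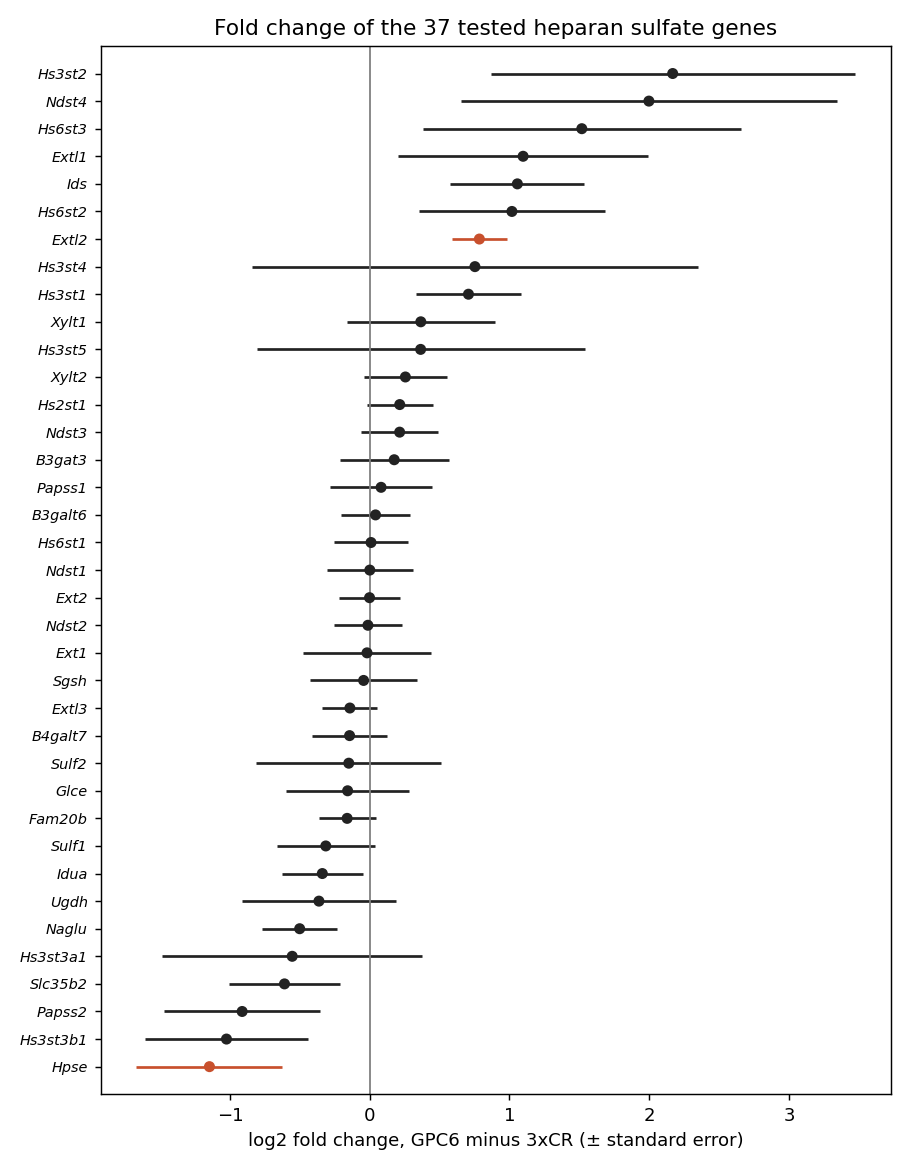
The points give the log2 fold change (GPC6 minus 3xCR, on the log2(normalized count + 1) scale) of each of the 37 tested heparan sulfate genes, and the lines reach 1 standard error to either side. The members whose groups did not overlap, Extl2 and Hpse, are in orange, and 22 members lay within 0.5 of zero.

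Levels were compared per kilobase of all annotated exons of a gene, which corrects for annotated length but not for which transcripts were made. The highest means over the 7 libraries were those of Sulf2 (882 normalized counts per kilobase), Papss1 (713), Slc35b2 (524), B3gat3 (325), Extl3 (299) and Ids (280). Sulf2 removes 6-O-sulfates from chains outside the cell, Papss1 makes the sulfate donor PAPS and Slc35b2 carries that donor into the Golgi. The lowest levels were those of Hs3st6 (1.39), Hs3st3a1 (3.00), Ndst4 (3.57) and Hs3st5 (4.45). The spread between tumors of a group, as the standard deviation of log2 values, was at a median of 0.58 over the members and 0.50 over all genes tested. It was smallest for Extl3 (0.18), Extl2 (0.19) and B3galt6 (0.19) and largest for Hs3st4 (2.57), Ndst4 (2.08), Hs3st2 (2.07) and Hs3st5 (1.74).

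**Figure D2:**
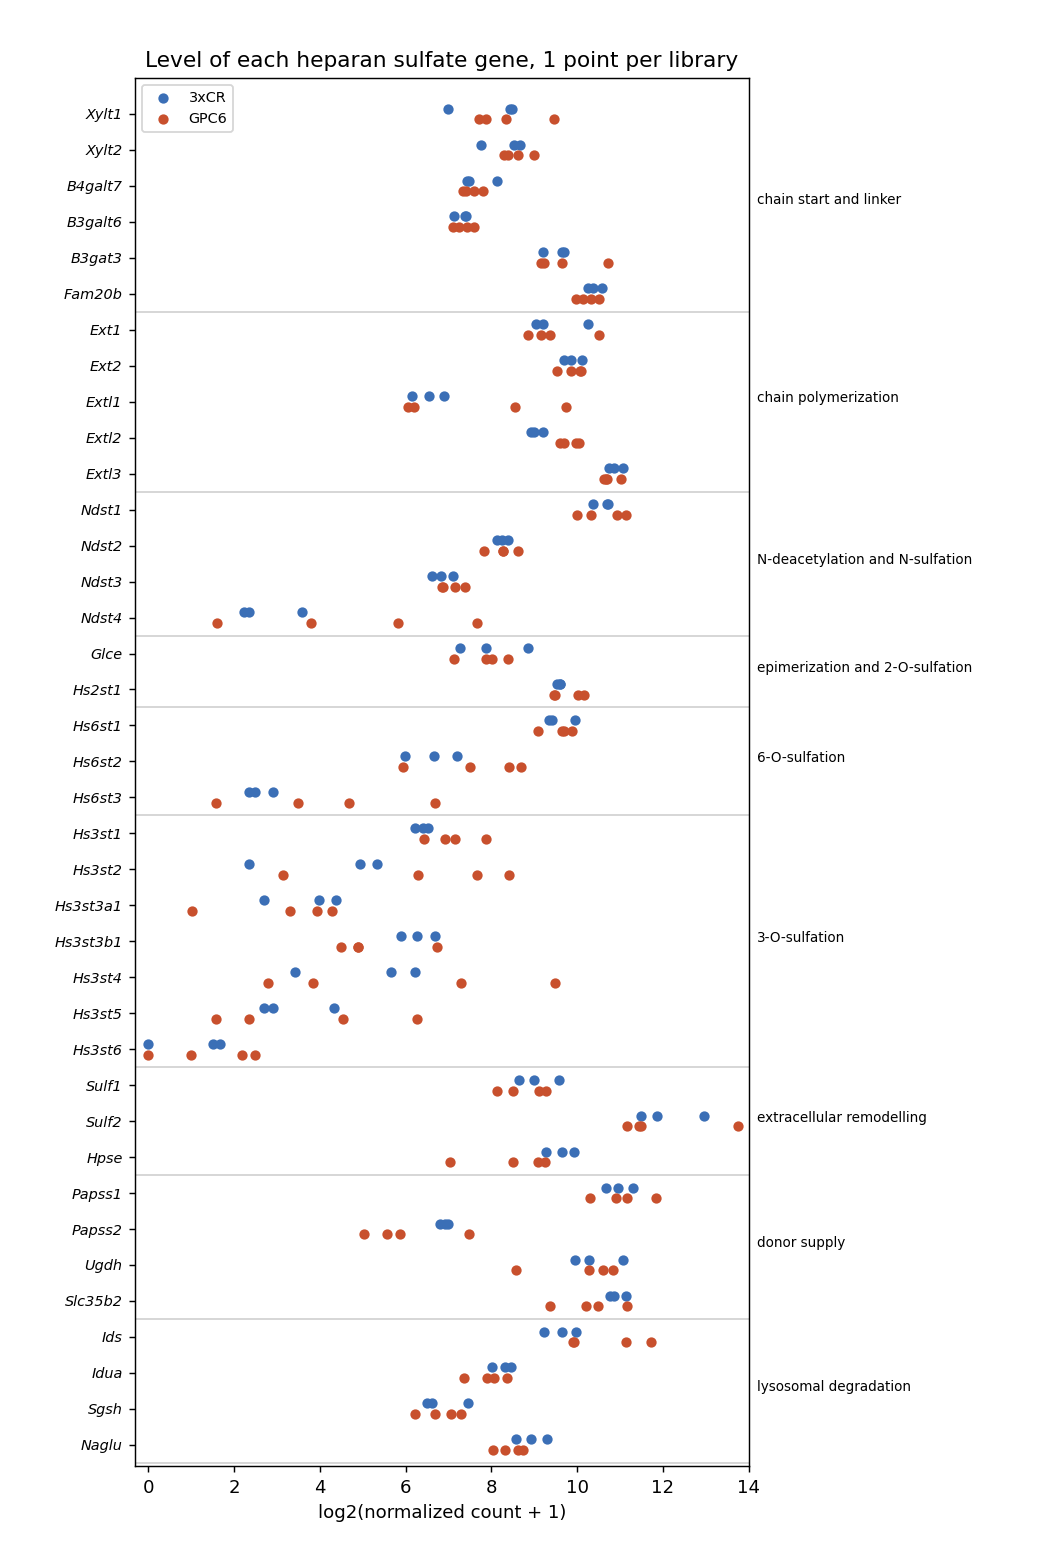
Each point is 1 library, placed by the log2(normalized count + 1) of the gene named on the left, with 3xCR libraries in blue and GPC6 libraries in orange and the genes grouped by their step in the pathway. The groups lie on top of each other in nearly all rows and come apart only in Extl2 and Hpse.

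The chain is started by xylosyltransferases (Xylt1 and Xylt2), and galactosyltransferases (B4galt7 and B3galt6), a glucuronyltransferase (B3gat3) and the xylose kinase Fam20b complete and mark the linker. All 6 overlapped between the groups, and their log2 fold changes ranged from -0.16 to 0.37. Fam20b, the member of this step with the most reads, had 1224, 1517 and 1314 normalized counts in 3xCR tumors and 1277, 1462, 1120 and 1003 in GPC6 tumors. The highest and the lowest value differed by 1.51 times, and the log2 fold change was -0.16 (SE 0.20, limma adjusted p = 0.824). Xylt1 varied more, from 127 in 3xCR replicate 4 to 698 in GPC6 replicate 2, with a log2 fold change of 0.37 (SE 0.53, limma adjusted p = 0.847). Of the others, Xylt2 ranged from 216 to 507, B4galt7 from 161 to 279 and B3galt6 from 138 to 191 normalized counts. B3gat3 lay between 572 and 830 in 6 libraries and at 1689 in GPC6 replicate 1.

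Extl2 lies on chromosome 3 of GRCm38 from 116007462 to 116029017. Its enzyme is known to add N-acetylglucosamine to the linker that Fam20b has phosphorylated, which ends the chain before it is extended. Extl2 had 585, 511 and 488 normalized counts in 3xCR tumors, with a mean ± SD of 528 ± 51.1 (n = 3). The GPC6 tumors had 1054, 775, 829 and 1001, with a mean ± SD of 915 ± 134 (n = 4). Each GPC6 tumor lay above every 3xCR tumor, the library labelled GPC6 replicate 2 included. The log2 fold change was 0.78 (SE 0.20), with an unadjusted p of 0.0044 that did not pass adjustment (limma, adjusted p = 0.730). The two-sided exact permutation test gave p = 0.057, the smallest that 3 libraries against 4 allow. Across all 22 alternatives of the fit, the log2 fold change lay between 0.71 and 0.86 and the unadjusted p stayed under 0.05, and the groups stayed apart without GPC6 replicates 1 and 2. The adjusted p ranged from 0.029, with weights per library, to 0.999.

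The promoter of Extl2 is shown because this member kept the groups apart in each of the 10 settings for which the overlap was recomputed. RefSeq sequence of GRCm38.p6, from 250 bases before to 50 bases after the annotated start, was matched for 31 of the 38 members, with 37 windows in all since a gene can have several starts. The window of Extl2 lies on the plus strand, chr3:116007199-116007498, and capitals mark the GC box GGGCGG, the motif of Sp1 family factors, searched on both strands.
Extl2: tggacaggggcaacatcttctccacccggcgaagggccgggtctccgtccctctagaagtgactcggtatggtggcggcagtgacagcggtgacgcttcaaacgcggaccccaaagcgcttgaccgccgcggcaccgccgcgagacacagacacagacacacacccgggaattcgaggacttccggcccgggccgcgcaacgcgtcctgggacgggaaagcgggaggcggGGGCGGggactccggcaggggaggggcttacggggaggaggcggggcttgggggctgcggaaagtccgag
It holds 34 CpG dinucleotides, beside a median of 23 over the members' windows and 7 over all 32851 windows of the table. A GC box was found in 21 of the 37 member windows and in 35.7% of all windows. The second annotated start of Extl2, with its window at chr3:116008047-116008346, holds 6 CpG dinucleotides, no GC box and 1 copy of the E-box CACGTG, which occurs in 7.15% of all windows. The counts per gene do not tell the starts apart.

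The other members of the exostosin family extend the chain or begin its repeat. Ext1 and Ext2 form the polymerase, and Extl3 adds the first N-acetylglucosamine. Extl3, the member of this step with the most reads, had 1721, 1852 and 2160 normalized counts in the 3xCR replicates and 2093, 1584, 1618 and 1648 in the GPC6 replicates, so the groups overlapped in GPC6 replicate 1 (log2 fold change -0.14, SE 0.20, limma adjusted p = 0.840). Ext1 and Ext2 had log2 fold changes of -0.019 and -0.0011. Ext1 was highest in 3xCR replicate 4 (1213) and GPC6 replicate 4 (1466) and lay between 465 and 656 in the other 5 libraries, while Ext2 stayed between 739 and 1102. Their ratio within a library, in which the size factor cancels, differed by -0.018 on the log2 scale between the groups (two-sided exact permutation test, p = 0.971, Benjamini-Hochberg adjusted p = 1 over 6 ratios).

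Extl1, a glucosaminyltransferase of the same family, had 119, 92.1 and 70.4 normalized counts in 3xCR tumors against 856, 65.2, 373 and 72.02 in GPC6 tumors. It was thus high in GPC6 replicates 1 and 3 and at the 3xCR level in the others (log2 fold change 1.10, SE 0.90, limma adjusted p = 0.748), and the log2 fold change was 0.39 without GPC6 replicate 1. As a share of the summed count per kilobase of the 5 exostosin genes, Extl2 took 17.4% to 25.4% in 3xCR and 30.0% to 32.0% in GPC6 tumors. Extl3 took 42.5% to 45.9% and 30.0% to 36.3%, so that neither share overlapped between the groups. The shares of one library sum to 100% and are not separate observations. Shares were not computed for genes outside the list, so there is no background for those that did not overlap.

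**Figure D3:**
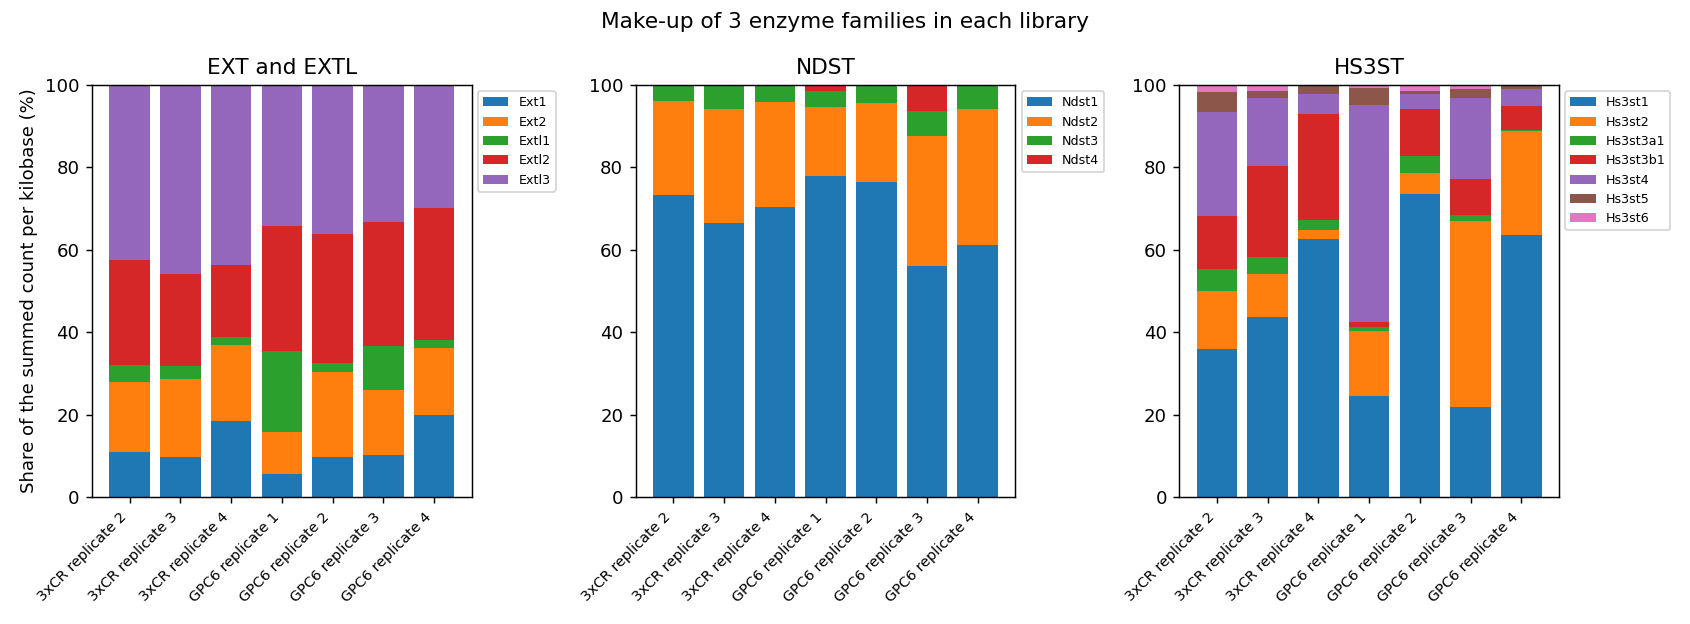
The bars give, for each library, the share in percent that each gene took of the summed normalized count per kilobase of its family, for the exostosins, the N-deacetylase/N-sulfotransferases and the 3-O-sulfotransferases. Extl2 (red) took 30.0% to 32.0% of the first family in GPC6 and 17.4% to 25.4% in 3xCR libraries. In the third family Hs3st3b1 took 12.8% to 25.6% in 3xCR and 1.04% to 11.3% in GPC6 libraries, while its counts overlapped.

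N-deacetylase/N-sulfotransferases replace the acetyl group of glucosamine with sulfate, which is the step that opens the chain to the later sulfotransferases. Ndst1 led this family with 56.1% to 78.0% of its summed count per kilobase, followed by Ndst2 with 16.6% to 33.2%. Ndst1 had 1655, 1327 and 1682 normalized counts in the 3xCR replicates and 1949, 2251, 1274 and 1025 in the GPC6 replicates. The lowest and the highest values were both in GPC6 tumors, and the log2 fold change was 0.00068 (SE 0.31, limma adjusted p = 1.00). Ndst4 was low in 5 libraries, with 11.0, 3.72 and 4.14 normalized counts in 3xCR tumors and, in GPC6 replicates 2 and 4, 12.8 and 2.06. It reached 55.6 in GPC6 replicate 1 and 203 in GPC6 replicate 3 (log2 fold change 2.00, SE 1.35, limma adjusted p = 0.731). Its log2 fold change became 1.02 when GPC6 replicate 3 was left out and 3.04 when GPC6 replicate 4 was. Ndst3 ranged from 96.5 to 166 normalized counts, with overlapping groups.

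Glce, the epimerase that turns glucuronic into iduronic acid, and Hs2st1, which sulfates that iduronic acid, had log2 fold changes of -0.16 and 0.21. Hs2st1 had 738, 770 and 769 normalized counts in the 3xCR replicates and 702, 1045, 717 and 1147 in the GPC6 replicates. Its standard error was 0.24 (limma adjusted p = 0.802), and the GPC6 tumors lay on both sides of the 3xCR range.

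Of the 6-O-sulfotransferases, Hs6st1 had the most reads, 681, 652 and 982 in the 3xCR replicates and 830, 946, 797 and 542 in the GPC6 replicates as normalized counts. Its groups overlapped throughout (log2 fold change 0.0094, SE 0.26, limma adjusted p = 0.993). Hs6st2 had 101, 145 and 62.2 in 3xCR and 413, 60.3, 338 and 179 in GPC6 tumors, so that 3 of 4 GPC6 tumors lay above all 3xCR tumors (log2 fold change 1.02, SE 0.67, limma adjusted p = 0.730). Hs6st3 was at 6.58, 4.65 and 4.14 in 3xCR tumors and at 102, 1.98, 24.8 and 10.3 in GPC6 tumors (log2 fold change 1.52, SE 1.14, limma adjusted p = 0.738). Its values in 3xCR replicate 4 and GPC6 replicate 2 were no more than a count of 0 allows in those libraries. Without GPC6 replicate 1 the log2 fold changes of Hs6st2 and Hs6st3 were 0.66 and 0.66, and without GPC6 replicate 2 they were 1.58 and 2.36. In both genes the library labelled GPC6 replicate 2 was the lowest of the 7. The log2 ratio of Hs6st1 to Hs6st2 was 2.95 ± 0.92 (SD, n = 3) in 3xCR and 1.95 ± 1.36 (SD, n = 4) in GPC6 tumors, a difference that did not exceed the spread (two-sided exact permutation test, p = 0.343, adjusted p = 1 over 6 ratios). The difference of -1.01 became -0.51 when 3xCR replicate 4 was left out and -1.68 when GPC6 replicate 2 was.

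3-O-sulfation is the rarest modification of the chain, and 3 of its genes, Hs3st4, Hs3st2 and Hs3st5, were among the 4 members of widest spread between tumors. The summed normalized counts of the 7 genes were 185 to 296 in 3xCR tumors and 139 to 1271 in GPC6 tumors. Hs3st4, the gene of this step with the most reads on average, had 74.0, 49.3 and 9.67 normalized counts in 3xCR tumors and 714, 5.93, 155 and 13.4 in GPC6 tumors. Both the highest and the lowest value belonged to GPC6 tumors (log2 fold change 0.75, SE 1.60, limma adjusted p = 0.896), and without GPC6 replicate 1 the log2 fold change was -0.46. Hs3st1, which is known for the antithrombin-binding site of heparin, had 74.0, 91.2 and 84.3 against 233, 85.0, 121 and 142, with GPC6 replicate 2 alone inside the 3xCR range (log2 fold change 0.71, SE 0.38, limma adjusted p = 0.730). Without GPC6 replicate 1 this log2 fold change was 0.45.

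Hs3st2 had the largest log2 fold change of the list, 2.17 (SE 1.30, limma adjusted p = 0.730). It had 39.5, 29.8 and 4.14 normalized counts in 3xCR tumors and 202, 7.90, 342 and 77.2 in GPC6 tumors. The value in 3xCR replicate 4 was no more than a count of 0 allows in that library. The 3 GPC6 tumors other than replicate 2 lay above all 3xCR tumors. Leaving out 3xCR replicate 4 gave a log2 fold change of 1.24, and leaving out GPC6 replicate 2 gave 3.24. Its promoter is shown because of the size of this difference and of a motif that few promoters hold. Capitals mark the cyclic AMP response element TGACGTCA, the motif of CREB and related factors, which reads the same on both strands. The window is on the plus strand, chr7:121392046-121392345, from RefSeq sequence of GRCm38.p6.
Hs3st2: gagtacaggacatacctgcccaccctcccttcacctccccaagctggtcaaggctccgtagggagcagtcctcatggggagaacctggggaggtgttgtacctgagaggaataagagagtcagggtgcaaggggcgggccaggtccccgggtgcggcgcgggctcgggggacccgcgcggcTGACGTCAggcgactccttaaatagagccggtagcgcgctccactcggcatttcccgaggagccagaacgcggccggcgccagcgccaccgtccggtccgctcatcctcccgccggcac
This element was found in 2 of the 37 member windows and in 1.79% of all windows, and the window of Hs3st2 also holds 1 GC box, left in lower case here.

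Hs3st3a1 and Hs3st3b1 encode enzymes with nearly the same catalytic domain, so reads of the shared stretch could have been split between them. Hs3st3b1 had 58.1, 102 and 76.0 normalized counts in 3xCR and 21.6, 28.7, 106 and 28.8 in GPC6 tumors, below all 3xCR tumors in 3 of 4 (log2 fold change -1.02, SE 0.58, limma adjusted p = 0.730). The log2 fold change was -1.52 without GPC6 replicate 3 and -0.28 with weights per library. As a share of the summed count per kilobase of the 7 genes, Hs3st3b1 took 12.8% to 25.6% in 3xCR tumors. In GPC6 tumors it took 1.04% to 11.3%, without overlap. The counts themselves overlapped. GPC6 replicate 3 had the highest Hs3st3b1 count of the 7 libraries, with a share of 8.68% beside 45.2% for Hs3st2. Hs3st3a1 had at most 19.7 normalized counts in any library, and 32.9% of its exon bases are shared with a gene on the opposite strand. Hs3st5 ranged from 1.98 to 75.7, with the highest value in GPC6 replicate 1.

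Outside the cell, Sulf1 and Sulf2 remove 6-O-sulfates and heparanase (Hpse) cuts the chain. Hpse lies on chromosome 5 of GRCm38 from 100679484 to 100719716. It had 806, 617 and 967 normalized counts in 3xCR tumors, with a mean ± SD of 796 ± 175 (n = 3). The GPC6 tumors had 130, 360, 608 and 547, with a mean ± SD of 411 ± 215 (n = 4). All GPC6 tumors lay below all 3xCR tumors, although 3xCR replicate 3 and GPC6 replicate 3 nearly met. The log2 fold change was -1.15 (SE 0.52, unadjusted p = 0.060, limma adjusted p = 0.730), and the two-sided exact permutation test gave the smallest possible p of 0.057. With the libraries scaled to an equal total the groups overlapped, and the log2 fold change was -0.67 without GPC6 replicate 1, -0.44 without GPC6 replicates 1 and 2 and -0.28 with weights per library.

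The summed normalized counts of 8 microglial markers were also lower in GPC6 tumors, at 8161 to 11397 against 12482 to 16235 in 3xCR tumors. Hpse and the marker sum were both highest in 3xCR replicate 4 (967 and 16235) and lowest in GPC6 replicate 1 (130 and 8161). Within the GPC6 group both were highest in replicate 3 (608 and 11397), while replicates 2 and 4 differed in order. Within the 3xCR group the order differed, with Hpse lowest in replicate 3 and the marker sum lowest in replicate 2 (12482, against 15673 in replicate 3). Of these markers, 7 had a lower mean log2 value in GPC6 tumors and 1, Sall1, a higher one (log2 fold change 0.012), and none was at 0 in any library. Their part in the result was not tested.

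The promoter of Hpse is shown as that of the other member whose groups did not overlap, on the minus strand at chr5:100719667-100719966, with its 1 GC box in capitals and 19 CpG dinucleotides.
Hpse: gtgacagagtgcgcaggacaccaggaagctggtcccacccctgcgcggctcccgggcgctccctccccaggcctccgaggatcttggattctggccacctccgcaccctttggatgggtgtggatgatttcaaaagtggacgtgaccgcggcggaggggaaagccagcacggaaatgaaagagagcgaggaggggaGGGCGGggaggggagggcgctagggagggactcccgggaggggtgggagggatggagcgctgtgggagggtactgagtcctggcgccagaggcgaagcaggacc

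**Figure D4:**
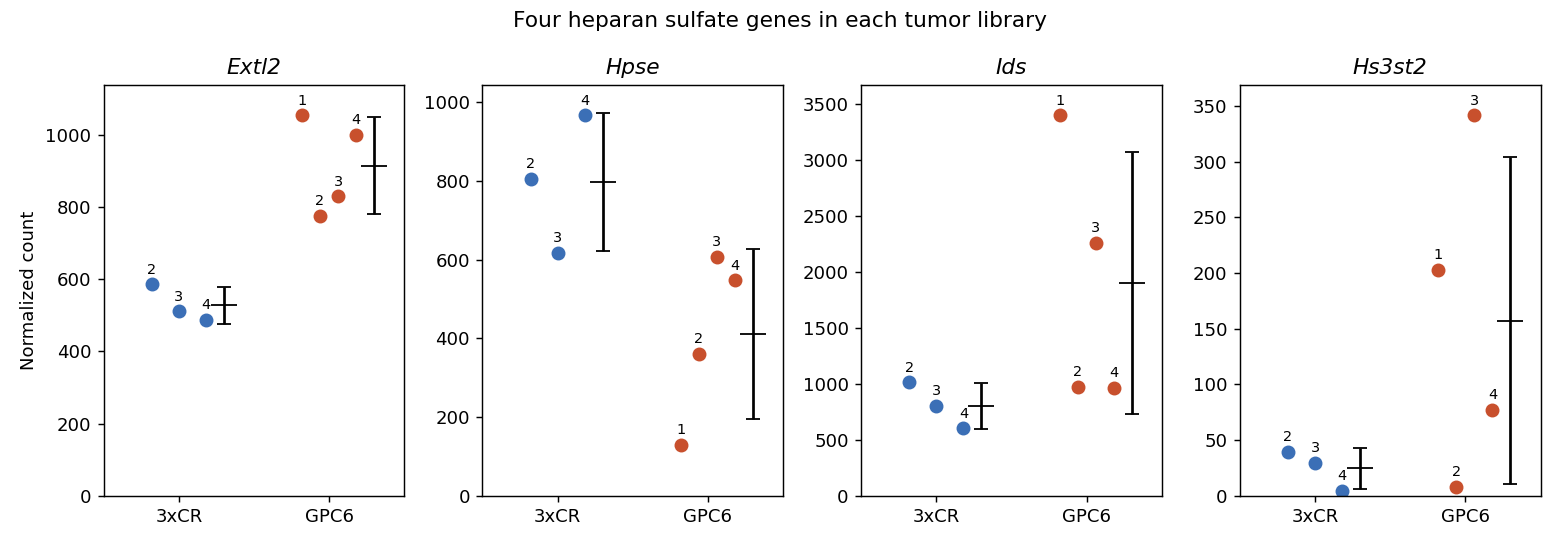
Each panel shows the normalized count of 1 gene in each library, with the replicate number above the point and a bar for the mean ± SD of the group beside it (3 libraries of 3xCR, 4 of GPC6). Extl2 was at 488 to 585 in 3xCR and at 775 to 1054 in GPC6 libraries, Hpse was lower in all GPC6 libraries, and Ids and Hs3st2 were high in GPC6 replicates 1 and 3.

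Sulf2 had the highest level of the list and varied between tumors of both groups, with 7977, 3737 and 2879 normalized counts in 3xCR tumors and 2861, 13721, 2795 and 2277 in GPC6 tumors. The library labelled GPC6 replicate 2 stood above the others, followed by 3xCR replicate 2 (log2 fold change -0.15, SE 0.66, limma adjusted p = 0.956). Without GPC6 replicate 2 all GPC6 tumors lay below all 3xCR tumors, although 2861 and 2879 nearly met. That was also so without GPC6 replicates 1 and 2. In these settings 16.1% and 23.6% of all genes did not overlap. Sulf1 ranged from 282 to 761, and the log2 ratio of Sulf1 to Sulf2 was -3.03 ± 1.21 (SD, n = 3) in 3xCR and -3.20 ± 1.66 (SD, n = 4) in GPC6 tumors (two-sided exact permutation test, p = 0.800).

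The sulfate donor PAPS is made by Papss1 and Papss2. Papss1 had 2529, 1973 and 1619 normalized counts in 3xCR and 1263, 3640, 1920 and 2303 in GPC6 tumors, with overlapping groups (log2 fold change 0.081, SE 0.36, limma adjusted p = 0.957). Papss2 had 110, 126 and 120 in 3xCR and 176, 46.4, 57.7 and 31.9 in GPC6 tumors. All 3xCR values lay close together, 3 GPC6 tumors were below them and GPC6 replicate 1 was above (log2 fold change -0.91, SE 0.56, limma adjusted p = 0.730). Without GPC6 replicate 1 the groups did not overlap and the unadjusted p was under 0.05, as it was with weights per library, where the adjusted p was 0.031. Ugdh, which makes UDP-glucuronic acid, ranged from 382 in GPC6 replicate 1 to 2149 in 3xCR replicate 3, and Slc35b2 from 657 in GPC6 replicate 1 to 2285 in GPC6 replicate 2.

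Of the lysosomal enzymes, Ids (iduronate 2-sulfatase) had the most reads, with 1011, 801 and 601 normalized counts in 3xCR tumors and 3396, 972, 2257 and 964 in GPC6 tumors. GPC6 replicates 1 and 3 stood above all others, while GPC6 replicates 2 and 4 lay within the 3xCR range (log2 fold change 1.06, SE 0.48, unadjusted p = 0.059, limma adjusted p = 0.730). The log2 fold change was 0.71 without GPC6 replicate 1 and 0.91 without GPC6 replicates 1 and 2. Naglu, Idua and Sgsh, which remove N-acetylglucosamine, iduronic acid and the N-sulfate, had log2 fold changes of -0.50, -0.34 and -0.044. For Sgsh, 21.6% of the exon bases are shared with Card14 on the opposite strand, and whether the counting used the strand is not stated in the sources used here.

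Read across the libraries, 8 members (Extl1, Ndst4, Hs6st2, Hs6st3, Hs3st2, Hs3st4, Hs3st5 and Ids) had their highest values in GPC6 replicates 1 and 3. That is 21.6% of the 37 tested, beside 16.9% of all genes tested. This pattern was chosen after the values were seen. The pan-neuronal markers followed it in 13 of 15 genes, and their summed normalized counts were 82010.5 and 44036 in GPC6 replicates 1 and 3, 12397 and 16065 in GPC6 replicates 2 and 4, and 7734 to 15053 in 3xCR tumors. All 15 had a log2 fold change above 0 and none was at 0 in any library, and their part in the members' differences was not tested. Of these 8 members, 6 (Extl1, Ndst4, Hs6st2, Hs6st3, Hs3st2 and Ids) were among the 8 that DESeq2 placed at an unadjusted p under 0.05. Members picked for high values in 2 GPC6 libraries are favoured by such a test on the same reads, so this overlap is not separate support. The other 2 that DESeq2 placed there were Extl2 and Hs3st1. All 8 that DESeq2 placed there were higher in GPC6 tumors, and none of them passed adjustment in DESeq2. They make up 21.1% of the list, beside 6.81% of all genes with a read that were placed there as higher and 9.77% in both directions. Those genes include ones below the filter, which 37 of the 38 members passed. Over the genes past the filter to which DESeq2 gave a p, the share in both directions was 12.1%, with 1249 genes higher and 525 lower.

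A second set of 4 members (Xylt1, Sulf2, Papss1 and Slc35b2) had its highest values in 3xCR replicate 2 and GPC6 replicate 2. That is 10.8% of those tested, beside 6.87% of all genes. This pattern was also chosen after the values were seen, and neither pattern's share was tested against that of all genes. The markers of oligodendrocyte precursors followed this second pattern in 6 of 8 genes. Their sums were 58875 and 82558 in these 2 libraries and 16050 to 40261 in the other 5. None of the 8 was at 0 in any library, and their part in the members' values was not tested. GPC6 replicate 1 held the highest value of 11 members and the lowest of 12, or 29.7% and 32.4%, beside 31.3% each of all genes tested.

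**Figure D5:**
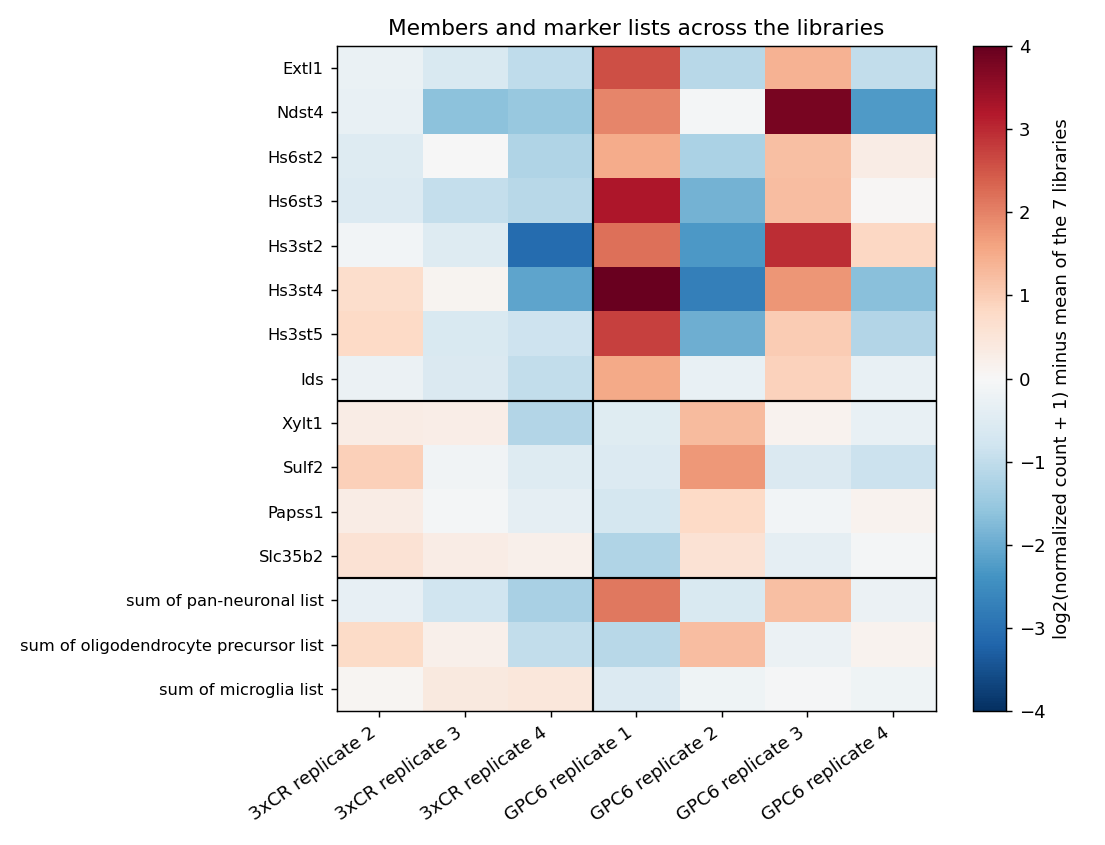
Each cell gives the log2(normalized count + 1) of a gene, or of the sum of a marker list, minus its mean over the 7 libraries, which are the columns. The upper 8 genes were highest in GPC6 replicates 1 and 3, as was the sum of the pan-neuronal list. The next 4 were highest in 3xCR replicate 2 and GPC6 replicate 2, as was the sum of the oligodendrocyte precursor list. Both sets of genes were chosen after the values were seen.

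Of 16 other genes of the pathway, which supply sugars or sulfate, release the chain or help to degrade it, 15 were tested and 0 were at an unadjusted p under 0.05 (beside 4.66% of all genes). The mean log2 value of 13 of the 15 was lower in GPC6 tumors, with a median log2 fold change of -0.25. Of 16 genes that make chondroitin and dermatan sulfate, which start from the same linker, 15 were tested, 0 were at an unadjusted p under 0.05, 6 had a higher and 9 a lower mean log2 value in GPC6 tumors, and the median log2 fold change was -0.099. This median turned to 0.063 without 3xCR replicate 2 and to 0.044 without GPC6 replicate 4, and reached -0.24 without 3xCR replicate 3.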

How the data were processed

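Bulk RNA-Seq of endpoint tumors was read from 1 table of 7 libraries, with groups and replicate numbers from the sample labels. Per the labels and the methods, the authors aligned reads to mm10 with STAR 2.5.0a, counted them with Rsamtools and GenomicFeatures and normalized with DESeq2 1.20.0. The deposited values are a normalized signal per gene, counts divided by 1 size factor per library, with no correction for length. Of 19282 rows, 25 had names turned into dates (0.254% to 0.361% of reads) and were left out. Whole reads were recovered from the value of 1 read (100% of values within 0.01 of a whole number). The DESeq2 test gave 4 genes and edgeR and limma 0 genes at an adjusted p under 0.05 over the whole table.

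Groups were compared with limma (version 3.58.1, R 4.3.3), taking log2 of the normalized count + 1, which understates the change of low genes, with a variance trend, two-sided, over genes with a mean of at least 10, Benjamini-Hochberg adjusted over all 14782. Scripts were tested on simulated counts. Single values used two-sided exact permutation tests. Alternatives were other pseudocounts, filters, scalings, variance models, library weights, edgeR 4.0.16, DESeq2 1.42.0, voom, a replicate block, each library left out, and, added after seeing the data, GPC6 replicates 1 and 2 left out together. Exon lengths and coordinates come from GENCODE M21 (GRCm38).

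The members and lists were chosen with earlier results of these data known. Full values were given for the member of most reads in each step, members whose groups did not overlap or that had an unadjusted p under 0.05, and the 3 largest increases and decreases. Extl1, Hs6st2, Hs3st1 and Xylt1 were added after their values were seen. Lists of oligodendrocytes, astrocytes, macrophages and monocytes, T cells, endothelial, mural and ependymal cells and erythrocytes were summed too. Nothing says more of the replicates than 1 brain each, so p-values measure the spread between these brains. The result of 1 gene outside the 38 is not reported here.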

Additional observations from a re-analysis of the deposited data

Results flagged for a closer look

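Within the GPC6 group of 4, a library was noted for a gene or ratio where it stood apart from its nearest neighbour by more than Dixon's critical share of the whole range on the log2 scale. Of 44 quantities examined, 2 met this, where chance gives about 2.2. Sulf2 had 13721 normalized counts in GPC6 replicate 2 (2277 to 2861 in the other GPC6 libraries). Extl3 had 2093 normalized counts in GPC6 replicate 1 (1584 to 1648 in the others). With 3 libraries, the 3xCR group is too small for this measure.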

How the results depend on the processing

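The median log2 fold change of the heparan sulfate genes stayed within -0.069 to 0.088 over 22 alternatives. Members at an unadjusted p under 0.05 numbered 2 with an equal total (4.82% of all genes) and 8 with DESeq2 (9.77%). They numbered 3 with edgeR (6.70% with TMM, 6.83% with RLE) and 14 with weights per library (34.5% of all genes). Without GPC6 replicates 1 and 2, a setting chosen after seeing the data, they numbered 5 (6.10% of all genes). With each library left out they numbered 1 to 7 (0.819% to 9.46% of all genes). With weights per library, which ranged from 0.301 to 8.71, 6 were at an adjusted p under 0.05 (Extl1, Extl2, Ndst4, Hs3st2, Papss2 and Ids; 13.3% of all genes), and Gpc6 had a log2 fold change of 3.57 (adjusted p = 0.029 over the range 0.029 to 0.999). Members without overlap numbered 1 with an equal total (6.21% of all genes), 12 without GPC6 replicates 1 and 2 (23.6%), and 2 to 8 with each library left out (7.92% to 20.9%). The 2 other pathway lists held 1 gene at an unadjusted p under 0.05 without a filter, with DESeq2 and without GPC6 replicates 1 and 2. All genes were there at 4.55%, 9.77% and 6.10%. With weights these lists held 8 (34.5% of all genes). The median of the genes that supply or degrade the chain was -0.11 with edgeR and TMM, -0.084 with RLE, -0.086 with DESeq2 and -0.40 to -0.11 with each library left out.

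Replicate numbers gave no pairing by source. Deviations from the group means correlated with r = -0.19, 0.12 and 0.30 between same-numbered libraries, and with r from -0.46 to 0.50 between differently numbered ones. So few values cannot tell whether same-numbered libraries shared a batch, which the sources used here do not state. With the replicate number as a block, 2 members were at an unadjusted p under 0.05 (Extl2 and Papss2), beside 4.59% of all genes. The sign turned there for Ext1 to Ext2 (0.067), Ndst1 to Ndst2 (-0.24), Ndst1 (-0.11), Hs6st1 (-0.031), Hs3st4 (-0.46) and Sulf2 (0.0085). Other signs turned for values near zero, and the cause was not tested. These were Xylt1 (-0.012), Ndst1 (-0.023) and Hs2st1 (-0.0033) with weights, Ndst1 (-0.044) and Hs6st1 (-0.035) with an equal upper quartile, and Ndst1 (-0.0029) and Hs6st1 (-0.0021) with voom. Without GPC6 replicates 1 and 2 they were Ndst1 (-0.44) and Hs6st1 (-0.21), and Sulf2 was 0.14 with TMM, 0.17 with RLE and 0.17 with DESeq2. With each library left out, the log2 ratios ranged from -0.80 to 0.64 for Sulf1 to Sulf2, -0.55 to 0.62 for Xylt1 to Xylt2, -0.30 to 0.25 for Ext1 to Ext2 and -0.24 to 0.23 for Ndst1 to Ndst2. The log2 fold changes ranged from -0.12 to 0.62 for Xylt1, -0.18 to 0.20 for Ndst1, -0.099 to 0.20 for Hs6st1, -0.46 to 1.77 for Hs3st4, -0.75 to 0.28 for Sulf2 and -0.18 to 0.33 for Papss1.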

Other observations

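Among the enzymes of chondroitin sulfate, Chst3, Chst11 and Ust, sulfotransferases of that chain, had, like Sulf2, their 2 highest normalized counts in 3xCR replicate 2 and GPC6 replicate 2. Chst11 had 2963 and 3833 normalized counts there and 866 to 1952 in the other 5 libraries. Ust had 1304 and 1274 there and at most 445 elsewhere. This pattern was seen in 20% of the 15 tested enzymes of that chain, beside 6.87% of all genes tested. Chst15, which adds a further sulfate to chondroitin sulfate, and Chsy3 were highest in GPC6 replicates 1 and 3, with 450 and 321 normalized counts of Chst15 against 109 to 181 elsewhere. That pattern was seen in 13.3% of the 15 tested enzymes, beside 16.9% of all genes tested. Both patterns were chosen after the values were seen. Chst13 was below the filter, with 27.6 normalized counts in 3xCR replicate 4 and at most 2.19 in the other libraries.

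Other marker lists gave summed normalized counts of 67024 to 84249.6 in 3xCR and 15919 to 113982 in GPC6 tumors for oligodendrocytes, and 15353 to 60902 and 27166 to 64076 for astrocytes. Macrophages and monocytes gave 424 to 4586 and 246 to 3727, and T cells 457 to 1838 and 334 to 480. Endothelial cells gave 1125 to 3076 and 2042 to 2651, mural cells 1287 to 2670 and 1034 to 1743, ependymal cells 259 to 448 and 86.9 to 688, and the one erythrocyte gene present, Alas2, 3.29 to 40.0 and 3.55 to 13.9. No explanation was tested for these values.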
